A study of Homo sapiens with 2 samples.

Results

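The 10 genes described here belong to the pathway of the cytokine interleukin 6 and the transcription factor STAT3: the ligands IL6 and LIF, the receptor chains IL6R, IL6ST, LIFR and OSMR, the transcription factor STAT3 itself, the feedback inhibitor SOCS3, and the target genes BCL3 and PIM1. They were chosen by name, with earlier results of these data known. Their probes on a whole-genome expression array were found through the RefSeq accession that the array design gives each probe. All 10 had a probe, among 19740 genes with a probe that matched 1 symbol, and all 10 were among the 13812 genes measured above background. The genes have 18 probes on the array, placed on 47 spots, and every probe is reported.

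The cells were RWPE-1, a noncancerous human prostate epithelial line grown in serum-free keratinocyte medium, transfected with 30 nM of either pre-miR-424, a synthetic precursor of the microRNA miR-424, or Negative control #1, a control precursor. RNA of both transfections was amplified, labelled and hybridised together on 2 Agilent two-colour arrays. On the array with normal labelling the pre-miR-424 RNA carried Cy5 and the control RNA Cy3, and on the other array, the dye swap, the dyes were exchanged. The arrays repeat 1 pair of RNA, so they count as 1 replicate, no p-value can be given, and the SD printed below covers labelling and hybridisation error but not variation between cultures.

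Cytokines of the interleukin 6 family bind a receptor chain of their own and share the signalling chain gp130, the product of IL6ST. Janus kinases bound to gp130 then phosphorylate STAT3, which enters the nucleus and activates genes that include SOCS3, whose product binds gp130 and the kinases and shuts the signal off. In epithelial cells the pathway is known for its part in inflammation, survival and growth, and in prostate cancer for autocrine interleukin 6. The arrays measured mRNA only, so they hold no information on secreted cytokine or on phosphorylated STAT3.

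The microRNA that was delivered is printed here because its seed, the bases from 2 to 8 that pair with target mRNAs, defines the perturbation. The sequences are from RefSeq (GRCh38.p14), 5′ to 3′, with the seed in capitals. The gene MIR424 gives a 5p and a 3p strand, of which the first lies at chrX:134546680-134546701 on the minus strand.
hsa-miR-424-5p: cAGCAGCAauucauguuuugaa
hsa-miR-424-3p: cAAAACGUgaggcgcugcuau
Among 2370 mature human microRNAs in the table, 7 carry the seed of the 5p strand, miR-424-5p included, and the others include miR-15a-5p and miR-16-5p.
hsa-miR-15a-5p: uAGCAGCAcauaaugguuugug
hsa-miR-16-5p: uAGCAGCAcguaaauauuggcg
Target sites in the mRNAs of the 10 genes were not analysed here.

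Values are log2 ratios of pre-miR-424 over control after background correction and loess normalization within each array, with the sign turned on the dye swap, so that a value above 0 means more RNA with pre-miR-424 on either array. Levels are normalized spot intensities on a linear scale, which can be compared between the channels of a probe but not between probes. A gene was read from its brightest probe, and it was called higher or lower when its ratio reached 1.5-fold, or 0.58 on the log2 scale, in the same direction on both arrays. Between 66.8% and 70.1% of the spots stood well above background per channel and array, none was saturated, and the ratios of the arrays correlated with r = 0.157 across the 25664 measured probes. The ratios of 46.5% of all measured genes differed in sign between the arrays. The SD of the mean ratio over all genes was 0.20, against 0.16 for the part that differed between the arrays. That part holds random error as well as dye effects, and the mean ratio holds random error too. The basal epithelial genes KRT5, KRT14, KRT15, TP63 and ITGB4 were measured, as were the general epithelial genes CDH1 and EPCAM and the keratins KRT8 and KRT18 of simple and luminal epithelium. Of the secretory luminal markers of the prostate, KLK2 was measured and KLK3, TMPRSS2 and ACP3 were not well above background. Of the leukocyte markers, PTPRC and CD68 were measured, and CD3E was not well above background. COL1A1 and DCN were measured among 4 fibroblast markers, and CDH5 among 3 endothelial markers.

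IL6 was the member with the highest ratio and was the 1 gene of 10 that rose 1.5-fold on both arrays, where 0.623% of all measured genes did. STAT3 followed, higher on both arrays by each of its probes but short of 1.5-fold on the array with normal labelling. SOCS3, the feedback inhibitor that STAT3 activates, had the lowest mean ratio of the 10, at −0.15. No member fell 1.5-fold on both arrays, where 0.391% of all genes did, and none rose 2-fold, where 0.0724% did. At any size, 4 members were higher on both arrays (IL6, STAT3, BCL3 and PIM1), against 26.8% of all genes, and 2 were lower on both (OSMR and SOCS3), against 26.7%. The sign differed between the arrays for the other 4, which are LIF, IL6R, IL6ST and LIFR. Levels did not overlap between pre-miR-424 and control for the same 6 genes, the first 4 above the control, as for 22.3% of all genes, and OSMR and SOCS3 below it, as for 22.2%. The median of the 10 mean ratios was 0.084, and that of all measured genes was −0.004. The median of the members was 0.031 with median centring, when that of all genes was −0.044, and 0.15 on either array alone. With 10 genes, the counts at any size and of genes without overlap are not read as a result about the pathway.

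**Figure D1:**
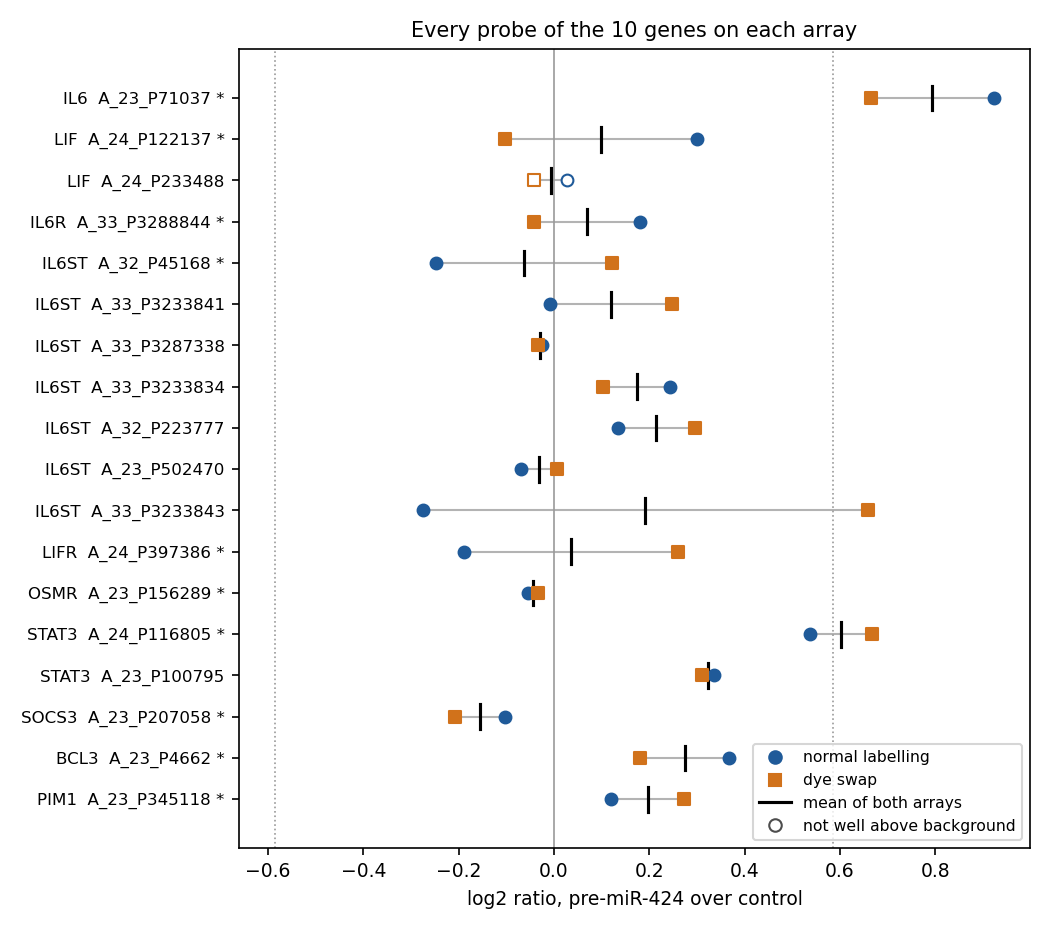
Log2 ratio of pre-miR-424 over control (x axis) for each of the 18 probes of the 10 genes, with a circle for the array with normal labelling, a square for the dye swap and a bar for their mean. Dotted lines mark 1.5-fold, an asterisk marks the brightest probe of a gene, and open symbols a probe not well above background; both symbols of IL6 lie beyond the right line, and those of STAT3 lie to the right of 0 for both probes.

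IL6 encodes interleukin 6, the ligand that names the pathway. Its probe (NM_000600), printed on 10 spots, read 2672 with pre-miR-424 and 1409 with the control on the array with normal labelling, and 2476 against 1562 on the dye swap. Both pre-miR-424 levels thus lay above both control levels. In RNA of a whole culture, more expressing cells and more RNA per cell cannot be told apart. The log2 ratios were 0.92 and 0.66, with a mean of 0.79 ± 0.18 (SD, 2 arrays), or 1.73-fold. Each of the 10 spots was above 0 on each array, from 0.74 to 1.05 with normal labelling and from 0.58 to 0.80 on the dye swap. Of the 13812 measured genes, 50 had a higher mean ratio. Before any correction, the Cy5 channel was the brighter one for all 18 probes of the pathway on both arrays, so the raw medians of IL6 were 3305 against 1157 on the array with normal labelling and 1765 against 2181 on the dye swap, where pre-miR-424 carried Cy3. With each array centred on its median in place of loess, the ratios of IL6 were 1.06 and 0.41, which misses 1.5-fold on the dye swap, while the medians of all genes moved to 0.13 and −0.23.

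LIF encodes leukaemia inhibitory factor, a ligand of the same family that signals through LIFR and gp130. Its measured probe (NM_002309, 2 spots) read 1519 against 1234 with normal labelling and 1332 against 1431 on the dye swap. The ratios of 0.30 and −0.10 differed in sign, and their mean was 0.098 ± 0.29 (SD, 2 arrays). The groups therefore overlapped. A second LIF probe was not well above background, with levels of 79 and 78 on one array and 90 and 93 on the other.

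**Figure D2:**
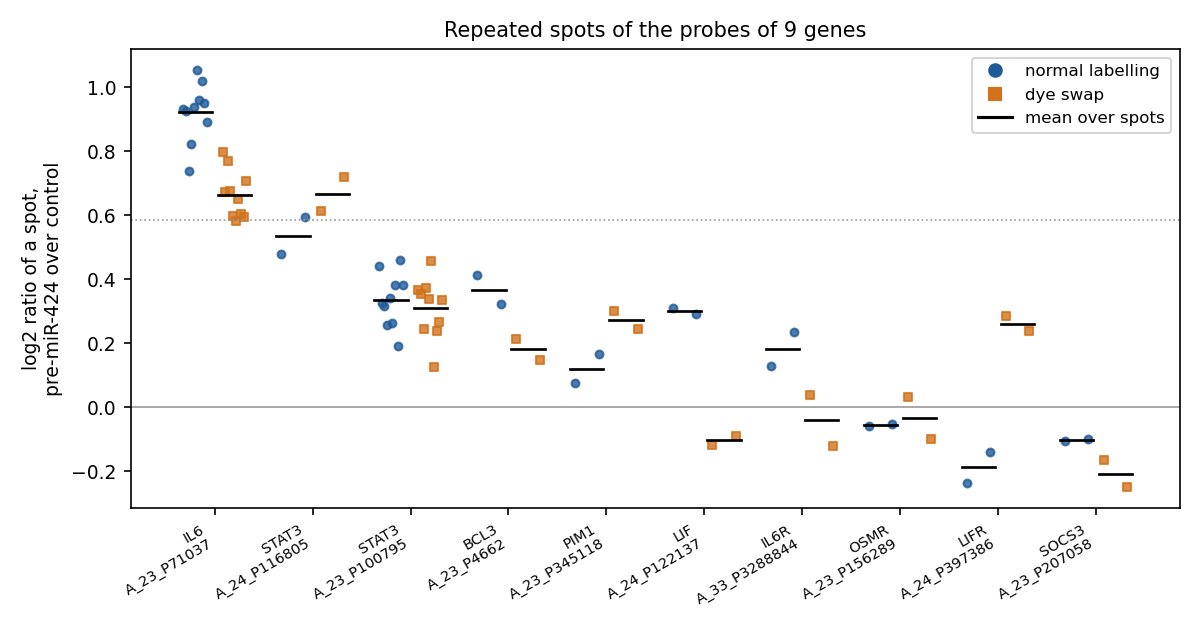
Log2 ratio of single spots (y axis) for 10 probes of 9 genes, by array, with a bar at the mean over spots; IL6ST is left out because several of its probes have 1 spot. The 10 spots of IL6 lie between 0.58 and 0.80 on the dye swap and between 0.74 and 1.05 on the other array, and the spots of LIF and LIFR change sides of 0 between the arrays.

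The receptor chains lay near 0 in their mean ratio. IL6R encodes the chain that binds interleukin 6, and its probe (NM_000565, 2 spots) read 630 against 556 with normal labelling and 521 against 536 on the dye swap. The ratios were 0.18 and −0.04, with a mean of 0.069 ± 0.16 (SD, 2 arrays). OSMR encodes the chain for oncostatin M, and its probe (NM_003999, 2 spots) read 1164 against 1210 and 1149 against 1177. Its ratios of −0.06 and −0.03 were the closest pair among the genes read from their brightest probes, with a mean of −0.045 ± 0.015 (SD, 2 arrays). LIFR encodes the chain for LIF, and its probe (NM_002310, 2 spots) read 363 against 413 with normal labelling and 446 against 372 on the dye swap. The higher level of LIFR was in the Cy3 channel on both arrays, the ratios were −0.19 and 0.26, and the mean of 0.036 ± 0.32 turned to −0.009 under median centring.

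IL6ST encodes gp130, the chain that all these cytokines share, and it has 7 measured probes, 4 designed on NM_002184 and 3 on NM_001190981. The brightest (NM_002184, 1 spot) read 5079 against 6033 with normal labelling and 6297 against 5788 on the dye swap. Its ratios were −0.25 and 0.12, with a mean of −0.063 ± 0.26 (SD, 2 arrays). The mean ratios of the 7 probes ran from −0.06 to 0.22, with a median of 0.12, so no probe of the receptor reached 1.5-fold by its mean. Of the 7, 2 were higher on both arrays, 1 was lower on both and 4 differed in sign. The widest pair came from the probe A_33_P3233843 (NM_001190981, 1 spot), which read 228 against 276 with normal labelling and 340 against 216 on the dye swap, with ratios of −0.28 and 0.66. The mean over the 7 probes was 0.082, on the other side of 0 from the brightest probe.

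STAT3, the transcription factor at the end of the receptor cascade, has 2 probes, both designed on NM_213662. The brighter probe (A_24_P116805, 2 spots) read 4691 with pre-miR-424 against 3235 with the control on the array with normal labelling, and 5176 against 3259 on the dye swap. Its ratios were 0.54 and 0.67, with a mean of 0.60 ± 0.093 (SD, 2 arrays), or 1.52-fold, and 123 of the 13812 measured genes had a higher mean ratio. The first array missed the threshold of 0.58, so STAT3 was not called, and on the dye swap alone it was. The dimmer probe (A_23_P100795, 10 spots) read 674 against 534 and 681 against 549. Its ratios of 0.34 and 0.31 differed by less than those of the brighter probe, with a mean of 0.32 ± 0.019 (SD, 2 arrays), or 1.25-fold. For both probes the pre-miR-424 levels lay above the control levels without overlap.

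The spots of the STAT3 probes had the same sign but not the same size. All 10 spots of the dimmer probe were above 0 on each array, from 0.19 to 0.46 with normal labelling and from 0.12 to 0.46 on the dye swap. The 2 spots of the brighter probe were at 0.48 and 0.59 with normal labelling and at 0.61 and 0.72 with the dyes exchanged, above every spot of the dimmer probe on the same array. The brighter probe exceeded the dimmer by 0.20 and 0.36 on the log2 scale. Averaging the probes gave STAT3 a mean ratio of 0.46. The offset of 50 used in the background correction draws ratios of dim probes towards 0. The levels of the dimmer probe, from 534 to 681, include this offset. Its part in the difference between the probes was not tested.

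**Figure D3:**
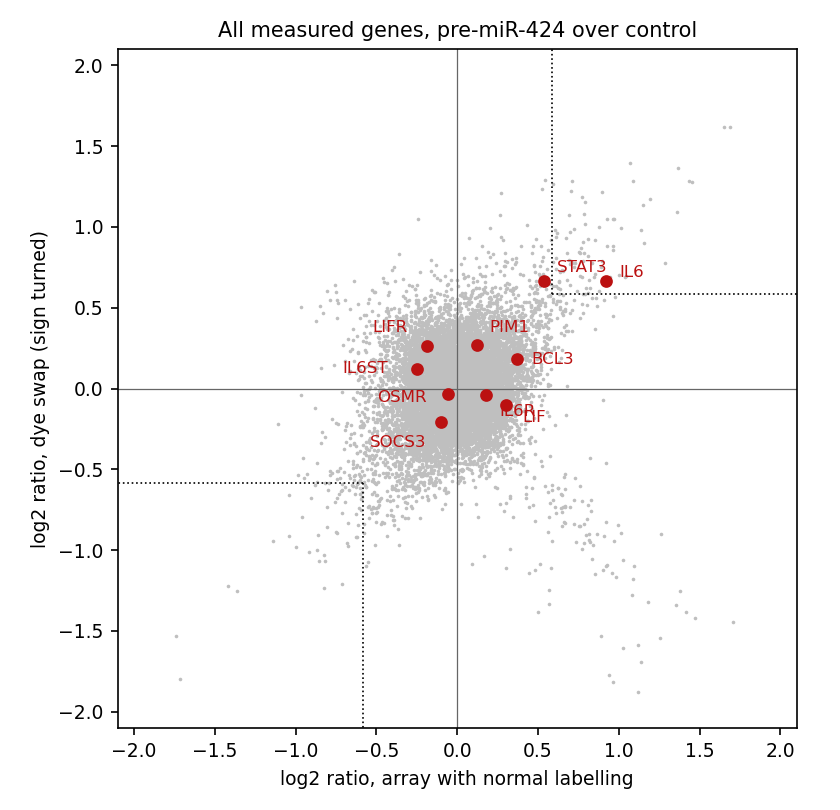
Log2 ratio on the array with normal labelling (x axis) against that on the dye swap with its sign turned (y axis), for the 13812 measured genes (grey, with 1 gene outside the axes) and the 10 members (red). Dotted corners mark 1.5-fold on both arrays; IL6 lies inside the upper right corner, STAT3 just left of it, and the other 8 members within the central cloud.

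SOCS3 encodes the inhibitor that ends signalling at gp130. Its probe (NM_003955, 2 spots) read 537 with pre-miR-424 against 576 with the control on the array with normal labelling, and 506 against 584 on the dye swap. The ratios were −0.10 and −0.21, with a mean of −0.15 ± 0.075 (SD, 2 arrays). SOCS3 was thus on the opposite side of 0 from STAT3 and IL6, by an amount within the SD of 0.20 that the mean ratio had over all genes.

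BCL3 encodes an atypical inhibitor of NF-kB that works as a transcriptional cofactor, and PIM1 a serine/threonine kinase that promotes survival; both are known target genes of STAT3. The probe of BCL3 (NM_005178, 2 spots) read 1293 against 1002 with normal labelling and 1213 against 1070 on the dye swap. Its ratios were 0.37 and 0.18, with a mean of 0.27 ± 0.13 (SD, 2 arrays), and 854 genes had a higher mean ratio. The probe of PIM1 (NM_002648, 2 spots) read 6635 against 6105 and 7316 against 6057. Its ratios were 0.12 and 0.27, with a mean of 0.20 ± 0.11 (SD, 2 arrays), and 1643 genes had a higher mean ratio. Both target genes were thus under 1.5-fold on both arrays.

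The promoters of the genes with the highest ratios, IL6 and STAT3, are printed as the 250 bases before the annotated start (RefSeq, GRCh38.p14), 5′ to 3′ on the gene's strand, with motif matches in capitals. The motifs searched on both strands were a STAT motif (TTCNNNGAA), its form with 4 bases between TTC and GAA, a kappaB-like motif (GGG and TTTCC with 2 bases between), a C/EBP-like motif (TTGCNNAA), the CRE motif (TGACGTCA), an AP-1 motif (TGANTCA) and an interferon-type repeat (GAAA and GAAA with 2 bases between). The promoter of IL6 lies at chr7:22726950-22727199 on the plus strand and that of STAT3 at chr17:42388443-42388692 on the minus strand.
IL6: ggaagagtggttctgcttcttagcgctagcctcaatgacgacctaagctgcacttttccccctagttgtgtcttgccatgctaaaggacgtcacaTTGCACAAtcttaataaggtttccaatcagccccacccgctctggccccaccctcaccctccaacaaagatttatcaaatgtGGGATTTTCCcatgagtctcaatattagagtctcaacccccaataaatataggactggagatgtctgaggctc
STAT3: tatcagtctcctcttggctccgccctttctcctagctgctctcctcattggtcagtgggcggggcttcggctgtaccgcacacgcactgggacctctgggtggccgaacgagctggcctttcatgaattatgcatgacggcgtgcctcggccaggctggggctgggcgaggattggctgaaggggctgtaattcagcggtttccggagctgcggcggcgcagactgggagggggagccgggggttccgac
The IL6 window holds a C/EBP-like match from −155 to −148 and a kappaB-like match from −73 to −64, counted from the start site. These letters occur in 9.06% and 1.73% of all 34943 promoter windows. The STAT3 window holds none of the 7 motifs. In 12 windows of 9 members (LIF has no entry), the STAT motif was found in 2 of the windows of LIFR and in no other member, SOCS3, BCL3 and PIM1 included, against 6.56% of all windows. OSMR and 1 window of LIFR held a C/EBP-like match. The other 4 motifs, found in 5.39% (spaced STAT), 1.63% (CRE), 6.59% (AP-1) and 3.02% (interferon-type) of all windows, matched none of the 12. A match describes these letters alone, and a missing match says only that they are not in this window.

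Around the 10 genes, 59 further genes of the pathway were grouped by role, of which 48 were measured. None passed 1.5-fold on both arrays, 13 were higher and 14 lower on both, 21 differed in sign, and the median of their mean ratios was −0.012. Of all measured genes, 26.8% were higher and 26.7% lower on both arrays, and 0.623% and 0.391% passed 1.5-fold, so the counts of these groups, which are small, are given as descriptions. The examples given are the highest and the lowest gene of each group.

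Of 8 further ligands of the family, 6 were measured, with 1 higher and 4 lower on both arrays, against 26.8% and 26.7% of all genes. IL11, which signals through gp130, had ratios of 0.25 and 0.10, and CLCF1, a ligand of the ciliary neurotrophic factor receptor, −0.33 and −0.11. OSM and IL27 were not well above background. Of 5 further receptors, 3 were measured, from IL31RA at −0.24 and −0.20 to IL27RA at 0.05 and 0.03. Of 6 kinases and adaptors, GAB1, a docking protein, had the highest mean (−0.11 and 0.24) and PTPN11, the phosphatase SHP2, the lowest (−0.46 and −0.005).

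Negative regulators also stayed within 1.5-fold. Of 10, 9 were measured, and they ran from PTPN1, a phosphatase of Janus kinases, at −0.44 and −0.28 to PIAS2, a SUMO ligase that binds STAT proteins, at 0.15 and 0.26. Among the other 6 STAT genes, STAT2 was the highest of all 48, at 0.62 and 0.54, with a mean of 0.58 ± 0.051 (SD, 2 arrays), and STAT5A the lowest of its group at −0.10 and −0.12. STAT2 carries interferon signals, and its mean ratio lay just under that of STAT3.

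Of 24 other target genes of STAT3, 18 were measured, 5 higher and 4 lower on both arrays, near the 26.8% and 26.7% of all genes, and the median of their mean ratios was 0.008. IER3, an early response gene that protects from cell death, had the highest values, at 0.51 and 0.38, with a mean of 0.44 ± 0.093 (SD, 2 arrays). PIM2, a kinase closely related to PIM1, had the lowest, at −0.32 and −0.67, with a mean of −0.50 ± 0.25 (SD, 2 arrays). PIM1 and PIM2 thus had opposite signs on both arrays.

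**Figure D4:**
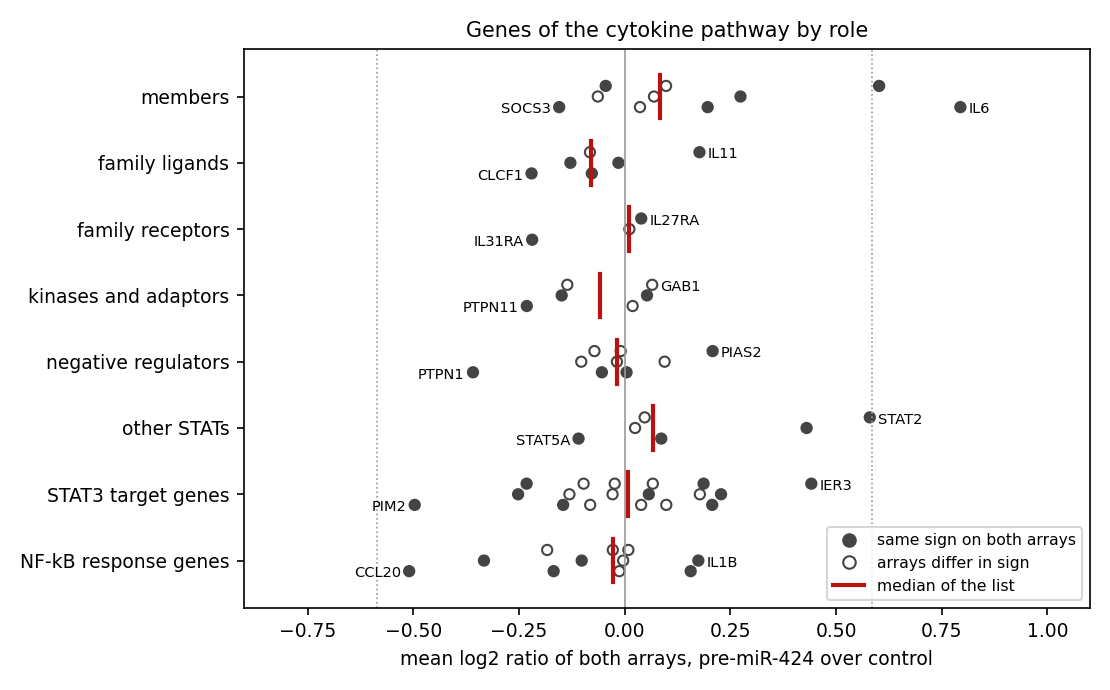
Mean log2 ratio of both arrays (x axis) for each measured gene of the 10 members and of 7 groups of related genes, filled where both arrays had the same sign, with a red bar at the median of a group. Dotted lines mark 1.5-fold by the mean, and IL6 and STAT3 are the 2 genes beyond them.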

How the data were processed

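RNA of RWPE-1 cells was compared on 2 arrays that the labels describe as technical replicates with exchanged dyes, and groups and dyes came from the labels. The scanner files deposited by the authors hold, for each spot and channel, the median pixel intensity and its local background on a linear scale, not normalized. Log10 ratios of red over green, which the scanner software computed from background-corrected and dye-normalized signals, stand in the same deposited files. A table of log2 ratios was deposited by the authors as well, whose scale and direction are not given in the sources used here. Set against the values computed here, it holds the red over the green channel on both arrays, without a change of sign on the dye swap (r = 0.991 and 0.988 across 42405 probes, medians 0.024 and 0.036).

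Normexp (offset 50, fitted on all spots) served as background correction, in limma 3.58.1 under R 4.3.3, and loess as normalization within each array, with control spots at weight 0. Spots of a probe were averaged. A probe counted as measured if every channel was flagged well above background and no spot as an outlier. The offset understates ratios of dim probes. Levels, used for display, were further scaled by Aquantile. RefSeq accessions named 27134 probes, and 25771 of these could be given a symbol from a RefSeq table (GRCh38.p14), used for names and for microRNA and promoter sequences, not for probe positions. The steps were run on simulated data in which the dye bias changed smoothly with intensity. That simulation held no dye effects particular to single probes, so it does not cover them. The members, gene lists and call rule were chosen with earlier results of these data known, and the genes named were all members and the highest and lowest of each list. Some genes of the lists are not reported here. Each ratio pairs the RNAs within an array. The precision is limited by the number of arrays. Alternatives changed the background correction (offset 16 or none), the normalization (median centring), the source of the ratios (scanner software or the authors), the filters on dim and outlier spots, the probe rule, the threshold and the number of arrays.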

Additional observations from a re-analysis of the deposited data

How the results depend on the processing

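IL6, STAT3, BCL3 and PIM1 stayed above 0, and OSMR and SOCS3 below 0, in each of 11 alternatives, with IL6 between 0.66 and 0.92 and STAT3 between 0.46 and 0.67. IL6R and LIF kept their sign in 10, and IL6ST and LIFR in 9. Genes with the same sign on both arrays could not change sign with 1 array left out. The filters on dim and outlier spots left the ratios of all members as they were. The number of alternatives with the same sign is therefore no measure of robustness. The count of members past 1.5-fold, 1 in the report, was 0 with median centring, 0 at 2-fold and 2 by the mean of both arrays, and 1 to 2 with 1 array left out: the dye swap alone called IL6 and STAT3. The count of pathway genes, 0 in the report, was 1 with either array alone (STAT2 higher on the array with normal labelling, PIM2 lower on the dye swap). The median of the members, 0.084, was 0.0889 with an offset of 16, 0.0844 without background correction, 0.0311 with median centring, 0.109 with the scanner software's ratios, 0.0901 with the mean over probes and 0.1505 to 0.151 with 1 array left out. Of all 25664 measured probes, 218 passed 1.5-fold on both arrays, 428 by the scanner software's ratios, 36 at 2-fold, 394 by the mean, and 662 to 912 with 1 array left out. The cause of these shifts was not tested, except that 1 array, the mean and other thresholds change the rule itself. No paired analysis was possible because the comparison has 1 replicate and each ratio already pairs the RNAs. Without biological replicates, no difference between cultures can be judged, and the dimmer probes carry ratios drawn towards 0.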

Other observations

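Genes known to respond to NF-kB were listed as well, and a link to the kappaB-like match in the IL6 window was not tested. Of 14, 11 were measured, 2 higher and 4 lower on both arrays, against 26.8% and 26.7% of all genes, none passed 1.5-fold on both, against 0.623% higher and 0.391% lower, and the median of their mean ratios was −0.028. IL1B, an inflammatory cytokine, was the highest at 0.21 and 0.14. CCL20, a chemokine, was the lowest by brightest probes at −0.69 and −0.33, with a mean of −0.51 ± 0.26 (SD, 2 arrays). CXCL1 had a mean of −0.33 by its brightest probe and of −0.55 by its other probe. CXCL8, a neutrophil chemokine named after its values were seen, had ratios of −0.83 and 0.47, so its higher level was in the Cy3 channel on both arrays.

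Across all measured genes, 71 (0.514%) were 1.5-fold higher in Cy5 on both arrays and 4 (0.029%) were lower, whichever RNA carried the dye. No member was among them, which at these shares says little about 10 genes.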
